A study of Mus musculus with 6 samples.

Results

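Store-operated calcium entry is the route by which a T cell takes up calcium after its antigen receptor is engaged. The genes described here are 10 that encode central parts of it, a channel that lowers its driving force (Trpm4) and some of the pumps that clear calcium afterwards. They are Stim1, Stim2, Orai1, Itpr1, Itpr2, Itpr3, Trpm4, Atp2a3, Atp2b1 and Atp2b4. They were taken by symbol and not ranked by their values, although earlier results of these data were known. Each matched 1 row among the 54232 genes of the count table. All 10 passed the filter on low counts, which kept 13602 genes. Regulatory T cells (Treg cells), a CD4 lineage that restrains immune responses, were isolated as GFP-positive cells out of spleens of BAF60b knockout mice (KO, 3 libraries) and of wild-type mice (WT, 3 libraries), and the only comparison is KO against WT. BAF60b, encoded by Smarcd2, is a subunit of the SWI/SNF chromatin remodelling complex. The knockout is conventional, so it is not limited to Treg cells, and the sources used here do not give the GFP allele, the age and sex of the mice or any pooling of animals.

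As background, engagement of the T cell receptor activates phospholipase C gamma 1, which makes inositol trisphosphate (IP3). IP3 opens its receptors in the membrane of the endoplasmic reticulum (ER), calcium leaves the store, and the STIM proteins, which sense the calcium of the ER lumen, then gate the ORAI1 channel in the plasma membrane. The calcium that enters activates calcineurin and through it the NFAT transcription factors, and in mice the STIM proteins are known to be needed for normal Treg cell development and function.

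Total counts lay between 18167053 and 22502804 reads per library. Levels of single genes are TMM-normalized CPM (reads relative to library size). Marker sums and Y-linked levels are CPM of the total reads of each library, without TMM factors. A positive log2 fold change means higher in KO. A gene was called at an adjusted p under 0.05 in edgeR's quasi-likelihood test over all 13602 genes. Smarcd2 was at 58.2 ± 0.75 CPM in KO and 199 ± 6.25 CPM in WT (SD, n = 3 each), as the labels imply. Foxp3, the transcription factor that defines Treg cells, was at 596 ± 6.94 CPM in KO and 558 ± 7.37 CPM in WT, and all 6 Treg markers examined were detected, 1 of them called higher in KO, with a summed level of 4307 to 4722 CPM in KO and 4085 to 4312 CPM in WT. Markers of B cells summed to 14.0 to 19.9 CPM in KO and 16.6 to 21.2 CPM in WT, those of CD8 T cells to 13.0 to 13.3 CPM in KO and 11.3 to 14.9 CPM in WT, and those of NK cells to 5.89 to 7.01 CPM in KO and 4.82 to 6.42 CPM in WT. Myeloid markers summed to 11.6 to 76.4 CPM in KO and 21.1 to 26.8 CPM in WT, dendritic cell markers to 2.84 to 5.37 CPM in KO and 1.996 to 2.38 CPM in WT, and red cell and platelet markers to 2.22 to 15.2 CPM in KO and 3.08 to 5.06 CPM in WT. The highest value of each of these last 3 lists was that of KO 2. Of the tested markers, 1 of 3 for B cells was called higher in KO and 1 lower, 1 of 2 for NK cells was called lower, and 0 were called for CD8 T cells (2 tested), myeloid cells (4), dendritic cells (1) and red cells and platelets (4). The platelet gene Gp1bb had no read in any library. Reads of 4 Y-linked genes were at 0 in KO 2 and WT 1 and between 143 and 450.3 CPM in the other 4 libraries.

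The promoters of Itpr2 and Itpr3, the IP3 receptor genes with the highest levels, are shown because the KO libraries were lower than the WT libraries in the first of these genes and overlapped with them in the second. They are the 250 bases before the annotated start site (RefSeq, GRCm38.p6), written 5′ to 3′ on the strand of the gene, Itpr2 from the minus strand at chr6:146502224-146502473 and Itpr3 from the plus strand at chr17:27057054-27057303. Capitals mark every match, on either strand, to GGAAA (the core of NFAT sites), TGANTCA (AP-1), TGACG (the core of cyclic AMP response elements), CACGTG (E-box), GGGCGG (GC box) or CCAAT (the box of that name), the last 2 of which were added after the sequences had been read.
Itpr2: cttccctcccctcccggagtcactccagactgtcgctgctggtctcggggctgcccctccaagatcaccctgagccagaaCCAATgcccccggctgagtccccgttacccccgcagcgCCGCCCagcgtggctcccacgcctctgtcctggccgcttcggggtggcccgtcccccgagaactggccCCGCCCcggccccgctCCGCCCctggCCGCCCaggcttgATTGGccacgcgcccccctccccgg
Itpr3: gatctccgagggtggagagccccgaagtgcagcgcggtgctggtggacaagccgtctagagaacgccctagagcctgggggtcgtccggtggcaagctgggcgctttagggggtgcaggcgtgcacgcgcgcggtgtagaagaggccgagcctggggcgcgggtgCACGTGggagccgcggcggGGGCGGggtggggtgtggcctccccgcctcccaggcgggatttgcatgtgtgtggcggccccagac
Itpr2 held 4 GC boxes and 2 CCAAT boxes, and Itpr3 held 1 E-box and 1 GC box. No marked match overlapped another. Among all 32851 promoters of the same length, 32.7% held a GC box, 33.8% a CCAAT box, 6.02% an E-box, 17.8% a match to the cyclic AMP element, 6.75% an AP-1 match and 55.6% an NFAT core. The NFAT core was found in neither of these promoters. Promoters were found for 8 of the 10 genes, with 9 start sites, and not for Itpr1 and Trpm4. A GC box was present before the start site of every one of the 8 except Atp2b4. The Atp2b4 promoter (chr1:133753748-133753997) lies deep inside its gene (133699457 to 133801041, minus strand). The start sites of Atp2b1, Stim1 and Stim2 also lie inside their genes, but near the 5′ end. The NFAT core was present before 1 of the 2 start sites of Atp2b1 and before no other.

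Of the 10 genes, 1 was lower in KO (Itpr2), 1 was higher (Trpm4) and 8 did not pass the test. Across all genes tested 6.45% were called, 3.25% as higher and 3.2% as lower in KO. The KO and WT values did not overlap for 4 of the 10 (Orai1, Itpr1, Itpr2 and Trpm4), where 25.7% of all genes had no overlap, and 3 had an unadjusted p under 0.05, where 20.4% of all genes did. The median log2 fold change of the 10 was -0.03, beside 0.00 over all genes, and the median of its absolute size was 0.07, beside 0.11. In bulk RNA a lower level can mean fewer cells that express a gene or less RNA per cell, and these cannot be told apart. The largest share of exon length that any of the 10 genes has in common with another annotated gene was 2.58%, between Itpr3 and its antisense transcript Itpr3os, which had 9 reads over all libraries.

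**Figure D1:**
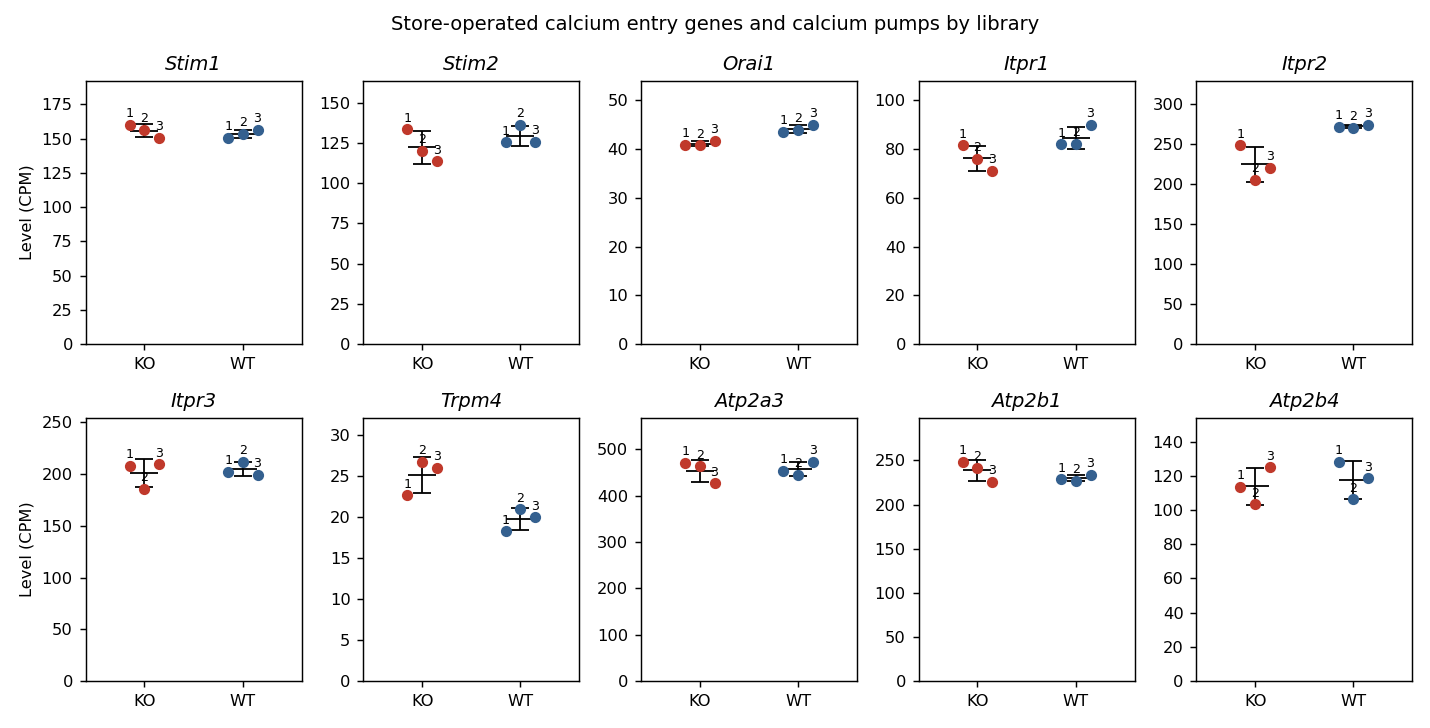
Levels (CPM, y axis from 0) of the 10 genes in each library, KO left and WT right, with replicate numbers beside the points and bars for mean and SD (n = 3 each). Itpr2 lies lower and Trpm4 higher in all 3 KO libraries than in any WT library, and the groups overlap in Stim1, Stim2, Itpr3 and the 3 pumps.

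Among the IP3 receptors, the channels that release the ER store, Itpr2 fell. Itpr2 (ENSMUSG00000030287, chromosome 6, 146108299 to 146502223, minus strand, mm10) was covered by 4948, 4045 and 4992 reads in KO 1, 2 and 3, against 4961, 5676 and 5442 reads in WT 1, 2 and 3. Scaled to library size these were 249, 206 and 221 CPM in KO, against 272, 271 and 274 CPM in WT. The WT libraries were nearly equal, the KO libraries were spread more widely, and all 3 KO values were below the lowest WT value. This gave a log2 fold change of -0.28 (SE 0.07, 95% interval -0.42 to -0.13, edgeR adjusted p = 0.0349), a level 0.826 times that of WT. The call was lost without KO 2 (adjusted p = 0.0608), without KO 3 (0.0632) and without any 1 of the WT libraries (0.107 to 0.117), and it was kept without KO 1 (0.00760). KO 2, the lowest library for Itpr2, is also the library with the highest myeloid and red cell marker sums, and the part of those cells in its level was not tested. Without KO 2 the log2 fold change was -0.22.

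Itpr1 had 81.5, 76.0 and 71.1 CPM in KO, against 81.9, 82.1 and 89.9 CPM in WT. The groups came close without overlapping, since KO 1 lay just under WT 1. The log2 fold change of -0.15 (SE 0.06, 95% interval -0.29 to -0.01) had an unadjusted p of 0.0366 and did not pass over all genes (edgeR adjusted p = 0.208). Itpr3 (chromosome 17) had 208, 186 and 209.6 CPM in KO, against 202, 212 and 199 CPM in WT. Its groups overlapped, with KO 2 the lowest library here too. The log2 fold change of Itpr3 was -0.02 (edgeR adjusted p = 0.863). In this fit the 95% interval of -0.15 to 0.10 covers levels between 0.899 and 1.07 times that of WT. Divided by exon length, Itpr2 made up 36.5 ± 1.29% of the IP3 receptor level in KO and 40.3 ± 0.642% in WT (SD, n = 3 each), and Itpr3 53.5 ± 1.64% in KO and 49.6 ± 1.14% in WT. The share of Itpr2 lay between 35.5% and 37.9% in the KO libraries and between 39.5% and 40.7% in the WT libraries. Itpr1 held 10.004 ± 0.746% in KO and 10.1 ± 0.588% in WT. These shares are descriptions and carry no test.

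Of the store sensors, neither passed the test. Stim1, which encodes the main sensor that gates ORAI1, had 160.0, 156 and 151 CPM in KO, against 151, 154 and 156 CPM in WT. The libraries of both genotypes span almost the same range. Its log2 fold change was 0.02 (SE 0.05, 95% interval -0.08 to 0.12, edgeR adjusted p = 0.869). Stim2, whose product responds to smaller losses of store calcium, had 133, 120.1 and 113 CPM in KO, against 125, 136 and 126 CPM in WT. KO 1 was within the WT range and the other KO libraries were below it. That was a log2 fold change of -0.08 (SE 0.07, 95% interval -0.22 to 0.07, edgeR adjusted p = 0.562). Per exon length Stim2 made up 61.3 ± 1.27% of the sum of both sensors in KO and 62.9 ± 1.16% in WT.

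Orai1, the pore-forming subunit of the calcium release-activated channel, had 40.9, 40.8 and 41.7 CPM in KO, against 43.5, 43.8 and 44.9 CPM in WT. Every KO library was below every WT library, with a coefficient of variation of 1.18% in KO and 1.72% in WT. The log2 fold change was nevertheless small, at -0.10 (SE 0.05, 95% interval -0.22 to 0.02), and did not pass (unadjusted p = 0.0956, edgeR adjusted p = 0.347).

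Trpm4 rose. It encodes a channel that calcium opens from the inside and that passes sodium, so that the membrane depolarises and the driving force for calcium entry falls. Trpm4 (ENSMUSG00000038260, chromosome 7, 45302632 to 45333780, minus strand, mm10) was covered by 451, 526 and 588 reads in KO 1, 2 and 3, against 333, 438 and 396 reads in WT 1, 2 and 3, the lowest counts among the 10 genes. These were 22.7, 26.8 and 26.0 CPM in KO, against 18.3, 20.9 and 20.0 CPM in WT. All KO values were above the highest WT value, KO 1 by the least. Its log2 fold change was 0.35 (SE 0.09, 95% interval 0.15 to 0.55, edgeR adjusted p = 0.0458), a level 1.27 times that of WT. The call was lost in limma-voom (adjusted p = 0.0532), with the Y-linked level of each library as a covariate (0.0566), and when any 1 library other than KO 1 was left out (0.0959 to 0.184). Without KO 2, whose myeloid and red cell marker sums were highest and whose Trpm4 level was highest, the log2 fold change was 0.30. With both libraries lacking Y-linked reads left out, an alternative chosen after seeing the data, it was 0.25 (adjusted p = 0.330), and that of Itpr2 was -0.22 (adjusted p = 0.183). Between those same 2 libraries, 1 of each genotype and so with no test, Trpm4 was at 26.8 CPM in KO 2 and 18.3 CPM in WT 1. Itpr2 was at 206 CPM in KO 2 and 272 CPM in WT 1. For Trpm4 these were the highest KO and the lowest WT library, and for Itpr2 KO 2 was the lowest KO library.

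**Figure D2:**
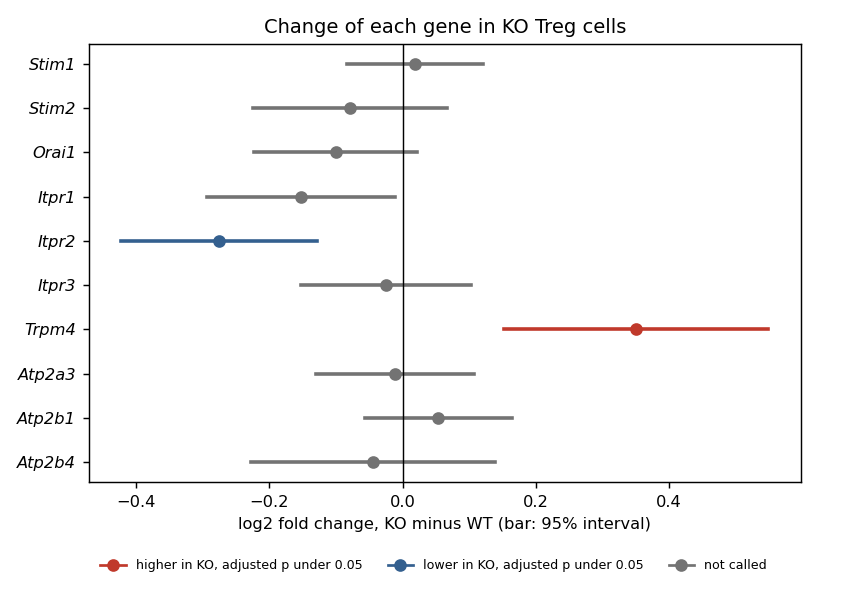
Log2 fold change (KO minus WT, x axis) of each gene with its 95% interval from edgeR's fit. Red marks a gene called higher in KO, blue one called lower and grey one not called. The interval of Trpm4 runs from 0.15 to 0.55 and that of Itpr2 from -0.42 to -0.13, and those of the other genes lie between -0.29 and 0.16.

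**Figure D3:**
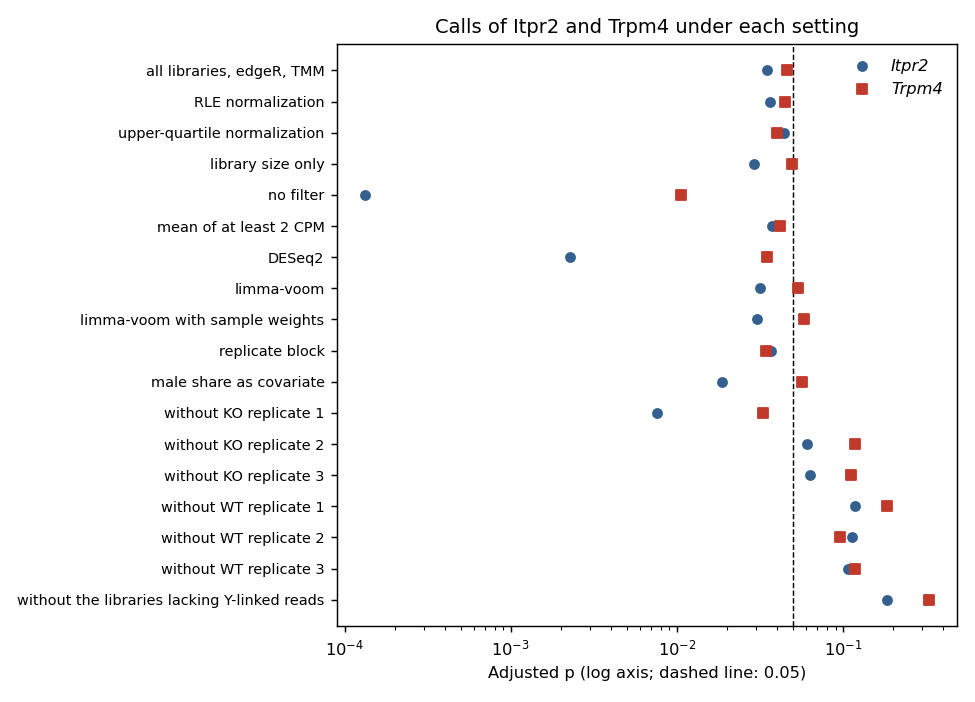
Adjusted p (log axis) of Itpr2 (blue circles) and Trpm4 (red squares) in each setting (rows), with a dashed line at 0.05. Both lie left of the line with all libraries (0.0349 and 0.0458) and right of it when any 1 library other than KO 1 is left out.

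None of the 3 calcium pumps passed the test. Atp2a3 encodes SERCA3, an ER pump that returns calcium to the store, and had 472, 464 and 427 CPM in KO, against 454, 445 and 474 CPM in WT. The groups overlapped, and KO 3 was the lowest library. Its log2 fold change was -0.01 (95% interval -0.13 to 0.11, edgeR adjusted p = 0.933), and since its sign turned under library size alone and upper-quartile factors no direction is given. Atp2b1 and Atp2b4 encode PMCA1 and PMCA4, pumps of the plasma membrane that move calcium out of the cell. Atp2b1 had 249, 241 and 226 CPM in KO, against 229, 227 and 234 CPM in WT, with a log2 fold change of 0.05 (95% interval -0.06 to 0.16, edgeR adjusted p = 0.608). KO 1 and KO 2 were above the WT range and KO 3 was below it. Atp2b4 had 114, 103 and 125 CPM in KO, against 128, 106 and 119 CPM in WT, with a log2 fold change of -0.04 (95% interval -0.23 to 0.14, edgeR adjusted p = 0.821). It varied by 9.48% in KO and 9.42% in WT (coefficient of variation, n = 3 each), and the spreads were not compared by a test. Of the summed level of the 3 pump genes per exon length, Atp2a3 held 77.5 ± 1.01% in KO and 77.8 ± 0.595% in WT, Atp2b1 14.1 ± 0.102% in KO and 13.6 ± 0.235% in WT, and Atp2b4 8.42 ± 1.09% in KO and 8.63 ± 0.702% in WT. This sum leaves out the other pumps of these cells, such as Atp2a2 with 4028 to 5532 reads per library.

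Levels of different genes were compared as CPM per kb of exon. The order from high to low over the 6 libraries was Atp2a3 (86.3 CPM per kb), Stim2 (24.5), Itpr3 (22.5), Orai1 (18.6), Itpr2 (16.8), Atp2b1 (15.4), Stim1 (14.9), Atp2b4 (9.47), Itpr1 (4.39) and Trpm4 (2.07). Atp2a3 was 3.52 times the level of the next gene, and the ranges of these genes over the libraries did not overlap. Stim2 was above Itpr3 in 5 of 6 libraries, and Itpr2 above Atp2b1 in 5 of 6, so neither pair is ordered beyond its spread. Orai1 and Itpr2, and likewise Atp2b1 and Stim1, kept their order in 6 of 6 libraries although their ranges overlapped. By level per length Atp2a3 was at percentile 96.4 of the genes tested and Trpm4 at percentile 29.7. Exon lengths are those of all annotated isoforms together, and isoforms not used in these cells lower the value of a gene.

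**Figure D4:**
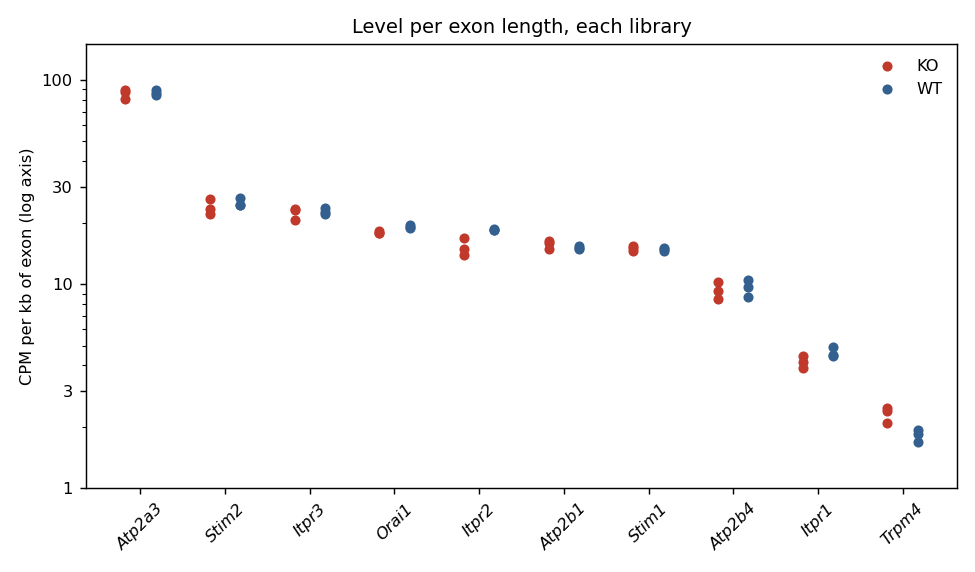
Level per exon length (CPM per kb, log axis) of each gene in each library, KO red and left, WT blue and right, ordered by the mean over 6 libraries. Atp2a3 stands above the others at 80.8 to 89.7 CPM per kb, and Trpm4 is lowest at 1.69 to 2.47.

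The gene whose pattern over the 6 libraries was followed was Itpr2, the member with the smallest p. Among the 8317 genes whose mean was 10 CPM or more, the 3 with the highest Pearson correlation of log2 CPM with Itpr2 were Mrpl30 (0.993), Endod1 (0.990) and Rpl9 (0.990). These correlations run over 3 KO and 3 WT libraries, so a difference between the genotypes enters each of them, and they describe likeness with no test. Mrpl30 was at 54.7 ± 3.65 CPM in KO and 63.6 ± 0.899 CPM in WT and did not pass (edgeR adjusted p = 0.0629). Rpl9 was at 282 ± 15.9 CPM in KO and 322 ± 5.55 CPM in WT and did not pass (edgeR adjusted p = 0.0599). Endod1 passed (edgeR adjusted p = 0.0248) and was at 107 ± 15.8 CPM in KO and 142 ± 3.92 CPM in WT.

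The genes around these 10 were examined in 8 lists, in which 127 genes were tested, 5 were higher in KO and 9 were lower. That is 14 called genes, where 6.45% of all genes tested were called. The median log2 fold change over the lists was -0.03, beside 0.00 for all genes. Of the 5 rises, 3 (Cacna1b, Trpm6 and Trpc1) were of genes that passed the filter on low counts only through their KO reads. With a filter at a mean of 2 CPM, 11 genes of the lists were called, 2 higher and 9 lower. Of 7 other parts of store-operated entry, 0 passed in edgeR and 0 in DESeq2 or limma-voom. Their median log2 fold change was -0.04, with 4 below 0 and 3 above. An unadjusted p in edgeR under 0.05 was reached by 3, where 20.4% of all genes did, and these 3 were lower in KO. Orai3 had 23.2, 26.2 and 24.6 CPM in KO, against 29.2, 29.7 and 27.9 CPM in WT (log2 fold change -0.23, edgeR adjusted p = 0.0976). Orai2, an ORAI1 paralog named here after its values were seen, had 121, 119 and 109.9 CPM in KO, against 126, 126 and 141 CPM in WT (log2 fold change -0.17, edgeR adjusted p = 0.150). The third was Tmem110, an ER protein that promotes STIM1 gating and was also named after its values were seen (log2 fold change -0.19, edgeR adjusted p = 0.204). The KO libraries lay below the WT libraries in each of these 3 genes, where 25.7% of all genes had no overlap.

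Upstream of the store, 3 of 22 genes of proximal T cell receptor signalling fell and 0 rose (median log2 fold change -0.07). Across all genes tested 3.2% were called lower and 3.25% higher in KO. Zap70, the kinase recruited to the receptor, was at 237 ± 5.18 CPM in KO and 278 ± 13.4 CPM in WT (log2 fold change -0.24, SE 0.05, edgeR adjusted p = 0.0219). Cd247, the zeta chain of the receptor complex, was at 263 ± 8.76 CPM in KO and 309 ± 5.25 CPM in WT (log2 fold change -0.23, edgeR adjusted p = 0.0157). Of its exon length 56.4% is shared with exons of the antisense gene Pou2f1, which makes the Cd247 count uncertain. Both of these calls were lost without WT 1 or WT 2 (adjusted p up to 0.104), and that of Cd247 also without WT 3. In the list of IP3 production and turnover 2 of 14 genes fell and 0 rose (median 0.07), beside the same shares of all genes. Inpp5a, a phosphatase that removes a phosphate from IP3, was at 22.9 ± 1.15 CPM in KO and 28.8 ± 0.681 CPM in WT (log2 fold change -0.33, edgeR adjusted p = 0.0208, lost without KO 1 or any 1 of the WT libraries). Impa2, which recycles inositol phosphates further on, was at 15.4 ± 0.715 CPM in KO and 21.99 ± 0.655 CPM in WT (log2 fold change -0.52, edgeR adjusted p = 0.00490), and 23.6% of its exon length overlaps a transcript on the opposite strand that has few reads.

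Among other surface channels 5 of 23 genes rose and 1 fell (median 0.21), where 3.25% of all genes were called higher and 3.2% lower. P2rx7, a channel opened by extracellular ATP, was at 209 ± 19.99 CPM in KO and 270.2 ± 3.25 CPM in WT (log2 fold change -0.37, SE 0.07, edgeR adjusted p = 0.00983, lost without WT 1 or WT 2). Trpv2 and Kcna3 were named after their values were seen. Trpv2, a cation channel, was at 128 ± 10.3 CPM in KO and 102 ± 4.62 CPM in WT (log2 fold change 0.33, edgeR adjusted p = 0.0154, lost without WT 2 or WT 3). Kcna3 encodes Kv1.3, a potassium channel that keeps the membrane negative and so sustains calcium entry. It was at 79.0 ± 4.38 CPM in KO and 67.3 ± 2.14 CPM in WT (log2 fold change 0.23, edgeR adjusted p = 0.0374), and its call was lost when any 1 library other than KO 2 was left out (adjusted p up to 0.175) and with the Y-linked covariate (0.0607). The other 3 rises were of genes with few reads. Cacna1b, the pore subunit of a voltage-gated calcium channel of neurons, had 35, 60 and 40 reads in KO, against 4, 6 and 6 reads in WT (log2 fold change 2.99, SE 0.38, edgeR adjusted p = 0.00195). Trpm6, a magnesium channel, had 34, 49 and 45 reads in KO, against 4, 13 and 9 reads in WT (log2 fold change 2.22, edgeR adjusted p = 0.00714). Trpc1, a cation channel, had 29, 34 and 27 reads in KO, against 6, 4 and 10 reads in WT (log2 fold change 2.08, edgeR adjusted p = 0.0112), and its call was lost without WT 1 or WT 2. All 3 were near the detection limit in WT and passed the filter on low counts only through their KO reads. With a filter at a mean of 2 CPM, 3 genes of this list were called, 2 higher and 1 lower. The count of rises in this list therefore depends on the filter.

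Inside the ER, 1 of 13 calcium-binding proteins of the lumen fell and 0 rose (median -0.04), where 3.2% of all genes were called lower. Rcn1, which encodes reticulocalbin 1, was at 65.4 ± 1.33 CPM in KO and 89.5 ± 2.88 CPM in WT (log2 fold change -0.45, SE 0.05, edgeR adjusted p = 0.000818), a call that was kept with any 1 library left out. Of 11 other calcium pumps and exchangers 0 passed in edgeR (median -0.01, 2 with an unadjusted p under 0.05, where 20.4% of all genes had one). The smallest p was that of Slc24a3, a sodium-calcium-potassium exchanger, at 2.18 ± 0.449 CPM in KO and 4.34 ± 1.36 CPM in WT (log2 fold change -0.98, edgeR adjusted p = 0.0634). It passed in DESeq2 (adjusted p = 0.0201), with no filter (0.000740), without KO 3 (0.0468) and without WT 2 (0.0370), and with other libraries left out it did not (highest adjusted p 0.219). Of 12 genes of mitochondrial calcium uptake 0 passed in edgeR and 0 in DESeq2 or limma-voom (median -0.06). An unadjusted p in edgeR under 0.05 was reached by 2, where 20.4% of all genes did. A log2 fold change below 0 was found for 11, where 48.9% of all genes had one. Vdac2, a channel of the outer mitochondrial membrane, had the smallest p, at 127 ± 1.42 CPM in KO and 137 ± 1.01 CPM in WT (log2 fold change -0.11, edgeR adjusted p = 0.184).

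Downstream of calcium entry, 2 of 25 genes of the calmodulin, calcineurin and NFAT list fell and 0 rose (median 0.00). Of all genes tested, 3.2% were called lower and 3.25% higher. Rcan3, a regulator that binds calcineurin, had 75.4, 73.8 and 75.5 CPM in KO, against 105, 101 and 110.4 CPM in WT. The KO libraries were nearly equal and all below the WT range. Its log2 fold change was -0.49 (SE 0.05, edgeR adjusted p = 0.000507), a call that was kept with any 1 library left out. Nfatc1 was at 288 ± 10.7 CPM in KO and 334 ± 18.3 CPM in WT (log2 fold change -0.21, SE 0.05, edgeR adjusted p = 0.0460). Its call was lost when any 1 library other than KO 1 was left out (adjusted p up to 0.168) and with library size alone (0.0590), upper-quartile factors (0.0587) or the Y-linked covariate (0.0709).

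**Figure D5:**
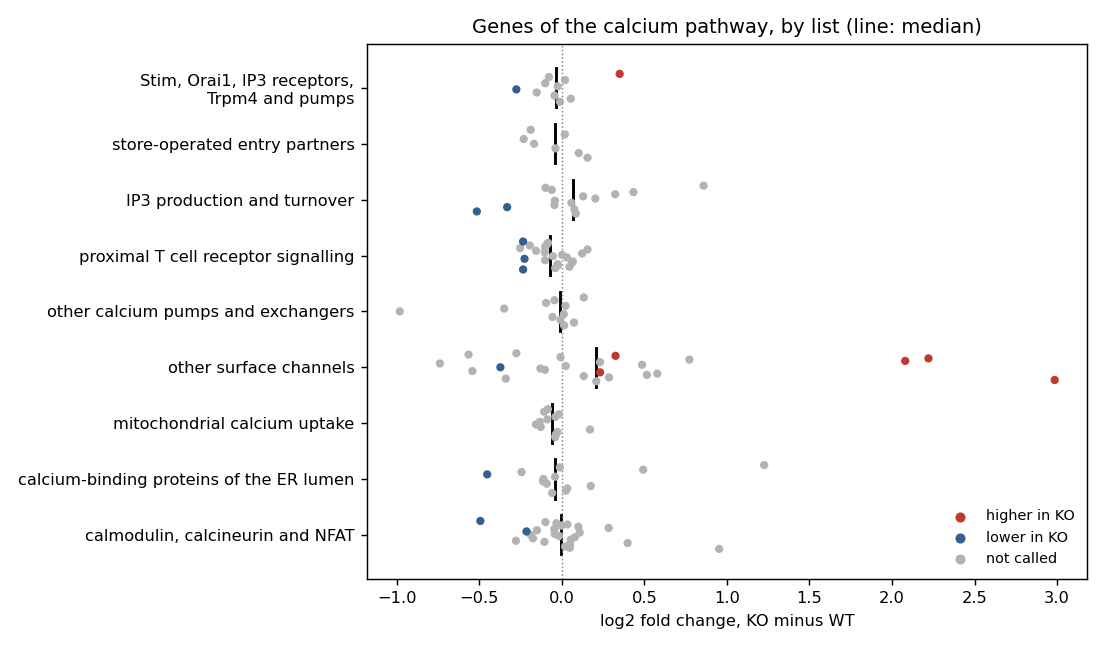
Log2 fold change (KO minus WT, x axis) of every tested gene in the 10-gene set and the 8 lists, with red for genes called higher in KO, blue for genes called lower, grey for genes not called and a black line for the median of each list. The medians lie between -0.07 and 0.21, and the 3 points above 2 are Cacna1b, Trpm6 and Trpc1.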

How the data were processed

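The files hold RNA-seq of 6 libraries of GFP-positive splenic Treg cells, 3 KO and 3 WT. The authors deposited 1 table of raw read counts per Ensembl gene, whole numbers with no normalization. Per the submitters' processing notes, the build was mm10 and the tools included HISAT2 2.1.0, fastp 0.23.2, DESeq2 1.34.0 and Picard, in no stated order or role. The sources used here do not give the counter, its strand setting or how duplicates were handled. Nothing says that the numbered libraries of a genotype are from different mice, and p-values therefore measure only the spread between these libraries. In each genotype 1 of the 3 libraries had no Y-linked reads and was thus not a technical repeat of the others.

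Genes were kept by filterByExpr (minimum count 10, minimum total 15). Counts were normalized by TMM and tested for genotype with the quasi-likelihood F test of edgeR 4.0.16 under R 4.3.3, with Benjamini-Hochberg adjustment over 13602 genes and a threshold of 0.05. The SE is the log2 fold change divided by the square root of F, and the 95% interval uses its t quantile. A count of 0 allows up to 3 counts, or 0.133 to 0.165 CPM, for counting error only. Exon lengths and overlaps came from GENCODE M21 (mm10), which gives the 10 genes the same coordinates as the table. Libraries of a genotype differed by a chi-square per degree of freedom of at least 5.39, so none was counted as a repeat. Deviations from the genotype means correlated above 0.1 in 1 of 3 same-numbered pairs. With so few libraries per genotype this cannot decide whether the numbers pair libraries, and the main test used no block.

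The genes, lists and tests were chosen with earlier results of these data known. Named are Smarcd2, Foxp3, the 10 genes, up to 4 called genes per list by adjusted p (otherwise its gene of smallest p), and the 3 genes most like the member with the smallest p. For 1 gene chosen in this way no values are reported here. Alternatives were other scalings and filters, DESeq2 1.42.0, limma-voom (limma 3.58.1) with and without sample weights, an adjusted p under 0.1, the replicate number as a block, the summed Y-linked level as a covariate and each library left out.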

Additional observations from a re-analysis of the deposited data

How the results depend on the processing

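The number of the 10 genes called was 2 with RLE, upper-quartile or library-size scaling, with either filter, in DESeq2, with an adjusted p under 0.1 and with the replicate block. It was 1 (Itpr2) in limma-voom, in limma-voom with sample weights and with the Y-linked covariate. With 1 library left out it was 0 to 2, 2 without KO 1 and 0 without any other library, and it was 0 without both libraries lacking Y-linked reads. Genes called over the whole table numbered 877, 1624 with no filter, 1355 at an adjusted p under 0.1, 344 to 848 with 1 library left out (344 without WT 1 or WT 2, 556 without WT 3), and 186 without both libraries lacking Y-linked reads. In the pathway lists 14 genes were called, 22 with no filter and 11 with a mean of at least 2 CPM (2 higher and 9 lower). The number was 6 to 16 with 1 library left out (6 without WT 1 or WT 2, 8 without WT 3), and 3 without both libraries lacking Y-linked reads. Among the 29 genes examined in this way, signs turned for 4, none of which was called in any setting. The log2 fold change of Stim1 was -0.0020 without both libraries lacking Y-linked reads and -0.0017 (without KO 1) to 0.042 with 1 library left out. That of Itpr3 was 0.016 without both and -0.056 to 0.025 (without KO 2) with 1 left out. That of Atp2a3 was 0.0034 with upper-quartile scaling, 7.51e-05 with library size alone, 0.0063 in limma-voom with sample weights, 0.0018 with the Y-linked covariate and -0.040 to 0.031 (without KO 3) with 1 library left out. That of Atp2b4 was 0.083 without both and -0.117 to 0.018 (without KO 2) with 1 left out. The cause was not tested.

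With the replicate block 738 genes of the whole table, 2 of the 10 genes and 11 of the pathway lists were called, and Itpr2 and Trpm4 kept their calls (adjusted p = 0.0367 and 0.0346), while Nfatc1 (0.0531) and Kcna3 (0.0732) did not pass. The share of Stim2 in the STIM level differed by -1.62 percentage points (KO minus WT), and by -2.33 to -0.991 with 1 library left out. Depth limits the low genes most: Cacna1b, Trpm6 and Trpc1 had between 4 and 13 reads in each WT library.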

Other observations

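The deposited annotation has a wider calcium signalling pathway, looked at after the lists, of which 86 genes were tested (median log2 fold change 0.00). Of these 1 was called higher and 6 lower in KO, where 3.25% of all genes were called higher and 3.2% lower. The gene called higher, Cacna1b, passed the filter on low counts only through its KO reads. This pathway holds 9 of the 10 genes described above, all but Trpm4, so it is not independent of them. Apart from Itpr2, Cacna1b and P2rx7, the called genes were receptors that raise IP3 and kinases that calcium and diacylglycerol activate, all named after their values were seen. F2r, the thrombin receptor, was at 41.1 ± 6.98 CPM in KO and 70.9 ± 1.28 CPM in WT (SD, n = 3 each; log2 fold change -0.79, SE 0.10, edgeR adjusted p = 0.00217). Tbxa2r, the thromboxane receptor, was at 30.9 ± 2.07 CPM in KO and 45.3 ± 2.18 CPM in WT (log2 fold change -0.55, SE 0.07, edgeR adjusted p = 0.00204). The thromboxane receptor is also known on platelets, whose markers summed to 2.22 to 15.2 CPM in KO and 3.08 to 5.06 CPM in WT together with those of red cells, and the part of such cells was not tested. Prkca was at 207 ± 4.64 CPM in KO and 246 ± 4.47 CPM in WT (log2 fold change -0.25, edgeR adjusted p = 0.0107). Prkcb was at 95.2 ± 5.18 CPM in KO and 117 ± 4.04 CPM in WT (log2 fold change -0.30, edgeR adjusted p = 0.0109). Whether the calls of F2r, Tbxa2r, Prkca and Prkcb hold with a library left out or in other settings was not examined.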
